A study of Mus musculus with 6 samples.

Results

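The 6 genes described here encode the mouse receptors for the constant (Fc) part of immunoglobulin G and the proteins they depend on: Fcgr1, Fcgr2b, Fcgr3, Fcgr4, Fcer1g and Fcgrt. They were taken by symbol from a deposited table of 25711 gene entries, and each symbol stood on 1 entry. RNA sequencing was done on wild-type (WT) bone marrow-derived macrophages, that is, macrophages differentiated in a dish from marrow precursors. The labels give 3 control libraries at 24 h and 3 libraries from cells kept for 24 h with 500 ng/ml CCL7, a chemokine that attracts monocytes, and the series asks how CCL7 relates to macrophage polarization in rheumatoid arthritis. They name no vehicle for the controls and do not tell whether replicates are separate cultures or separate mice, so the spread behind each p-value is that of these libraries and may be technical.

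Macrophages use Fc gamma receptors to bind antibody-coated particles and immune complexes. Fcgr1 (the high-affinity receptor), Fcgr3 and Fcgr4 encode activating receptors, which signal through the tyrosine-based activation motif (ITAM) of a shared adaptor chain encoded by Fcer1g. Fcgr2b encodes the inhibitory receptor, whose own inhibitory motif recruits the lipid phosphatase SHIP-1, and the balance between activating and inhibitory receptors is known to set how strongly a macrophage answers to immune complexes. Fcgrt encodes the heavy chain of the neonatal Fc receptor, which pairs with beta-2-microglobulin inside endosomes and returns immunoglobulin G and albumin to the outside of the cell.

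The 300-base promoter windows of the 4 surface receptors are shown because they differ in the motifs of factors known to act on these genes. They come from RefSeq (GRCm38.p6) and span 250 bases before to 50 after the annotated start, 5′ to 3′. All 6 genes had a window, and Fcgr3 had 2, of which the first is shown. Capitals mark matches, on either strand, to 3 motifs: the interferon-gamma-activated site (GAS, TTCNNNGAA), the core bound by the macrophage factor PU.1 (GAGGAA, which reads TTCCTC when it lies on the other strand) and the interferon-stimulated response element (ISRE).
Fcgr1 promoter, chr3:96293920-96294219, minus strand: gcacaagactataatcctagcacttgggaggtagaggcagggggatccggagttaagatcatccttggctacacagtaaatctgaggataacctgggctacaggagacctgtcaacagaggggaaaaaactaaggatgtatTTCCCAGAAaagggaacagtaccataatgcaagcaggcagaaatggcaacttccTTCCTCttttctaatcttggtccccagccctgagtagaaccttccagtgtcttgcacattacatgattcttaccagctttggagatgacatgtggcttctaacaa
Fcgr4 promoter, chr1:171018676-171018975, plus strand: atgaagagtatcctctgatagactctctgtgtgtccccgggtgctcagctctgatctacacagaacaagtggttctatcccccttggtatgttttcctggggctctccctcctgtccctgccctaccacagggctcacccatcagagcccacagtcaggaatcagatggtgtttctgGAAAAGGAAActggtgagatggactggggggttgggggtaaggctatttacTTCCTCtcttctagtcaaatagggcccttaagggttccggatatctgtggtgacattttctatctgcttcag
Fcgr3 promoter, chr1:171059354-171059653, minus strand: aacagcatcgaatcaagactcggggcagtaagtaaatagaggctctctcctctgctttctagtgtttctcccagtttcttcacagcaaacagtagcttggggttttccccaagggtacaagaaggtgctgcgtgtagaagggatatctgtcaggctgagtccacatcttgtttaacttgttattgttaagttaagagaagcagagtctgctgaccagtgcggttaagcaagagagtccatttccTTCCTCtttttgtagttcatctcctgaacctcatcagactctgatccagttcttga
Fcgr2b promoter, chr1:170976022-170976321, minus strand: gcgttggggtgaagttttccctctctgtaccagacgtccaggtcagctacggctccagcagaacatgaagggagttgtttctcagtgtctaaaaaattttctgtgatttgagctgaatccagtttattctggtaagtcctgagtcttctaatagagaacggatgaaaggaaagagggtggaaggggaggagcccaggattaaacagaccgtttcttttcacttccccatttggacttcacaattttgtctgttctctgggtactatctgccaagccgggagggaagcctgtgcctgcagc

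The Fcgr1 window held a GAS match (TTCCCAGAA) at bases -109 to -101 from the start and a PU.1 core match at -55 to -50. The Fcgr4 window held an ISRE match (GAAAAGGAAA) at -73 to -64 and a PU.1 core match at -22 to -17. The first Fcgr3 window held a PU.1 core match at -6 to -1, whereas the windows of Fcgr2b, Fcer1g and Fcgrt held none of the 3 motifs. No match overlapped another. Of 32851 promoter windows of the same length, 8.30% held a GAS match, 28.3% a PU.1 core match and 3.44% an ISRE match. A match describes letters in the window, and binding was not measured.

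Totals ran from 34860523 to 51161400 counts per library. The first principal component of log2 CPM held 93.3% of the variance and separated the groups. On the second, with 2.39%, CCL7 replicate 2 lay at 18.6 while CCL7 replicates 1 and 3 lay at -6.20 and -13.1. CCL7 replicate 2 was also the highest of the CCL7 libraries for 5 of the 6 genes, a count that was not taken over all tested genes. Changes are given below without CCL7 replicate 2 as well. All 10 macrophage markers of a list that includes Fcgr1 were in the table and were tested, with summed FPKM of 10844 to 11373 in the controls and 20789 to 22221 with CCL7. Most of that sum came from Lyz2, with a mean FPKM of 8793 in the controls and 17453 with CCL7. Among the 10, Cd68 fell (log2 change -0.23), Mertk did not pass (-0.002) and the others rose. For other cells that carry Fc receptors, the summed FPKM of the markers in the table (none of them at 0 in all libraries) was at most 0.358 for 5 of 7 B cell markers and 0.129 for 3 of 7 NK cell markers. For 6 of 6 dendritic cell markers it was 0.138 to 0.271 in the controls and 0.397 to 0.614 with CCL7, where Xcr1 went from 12 to 131 counts, Ccr7 from 2 to 64 and Clec9a from 54 to 16. It was 0.0940 to 0.230 in the controls and 1.22 to 1.91 with CCL7 for 6 of 8 neutrophil markers, where Camp went from 10 to 158 counts and Ly6g stood at 0 and 2. It was 1.77 to 1.88 and 0.0804 to 0.181 for 2 of 8 mast cell and basophil markers, where Kit went from 1542 to 124 counts. For 2 of 5 T cell markers it was at most 1.86, mainly from Cd4, whose summed counts were 793 and 497. It was at most 0.672 for 6 of 7 markers of chondrocytes, which the extraction text of the labels also names, and fibroblasts. The other markers of these lists had no entry under their symbols, among them Fcer1a and Ms4a2 of mast cells, Ncr1 of NK cells and Cd3e of T cells. The part of such cells in the results was not tested.

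With CCL7, 4 of the 6 genes rose, Fcgrt fell and Fcgr3 did not pass the test. The inhibitory receptor gene Fcgr2b had the highest log2 change of the 6 and the high-affinity activating receptor gene Fcgr1 the next, while the activating receptor gene with the most mRNA in the controls, Fcgr3, stayed near its control level. Over all 11143 genes tested with edgeR, 69.1% passed at an adjusted p below 0.05, 33.9% higher and 35.2% lower, and with the deposited totals 20.7% were higher and 53.4% lower. A rise of at least 2-fold was called for 7.71% of genes and a fall of at least 2-fold for 8.69%, and the 4 rises and the fall among these genes all exceeded 2-fold. The groups did not overlap in CPM (counts scaled to a common library total, here adjusted by the trimmed mean of M values, TMM) at any of the 6 genes, nor at 73.7% of all genes tested. In bulk RNA, fewer cells with a transcript and less of it per cell cannot be told apart.

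**Figure D1:**
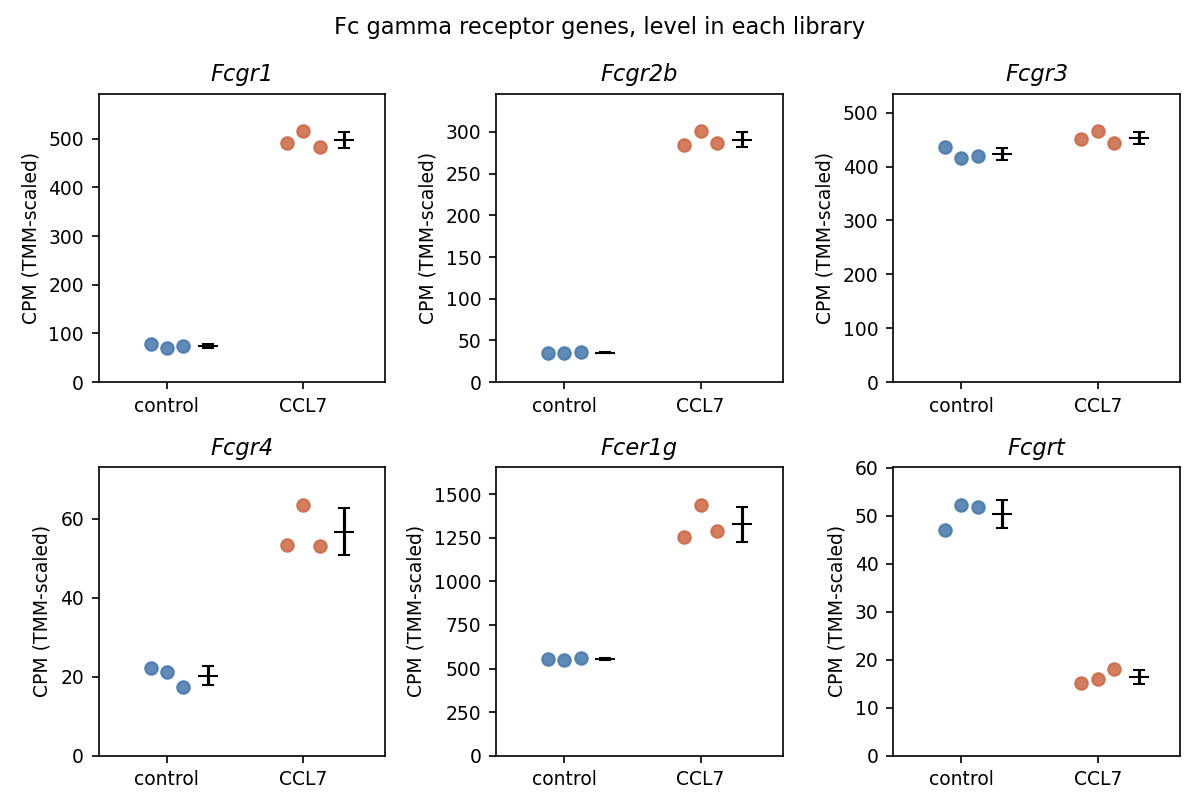
TMM-scaled CPM (vertical axes, from 0) of the 6 genes in the 3 control (blue) and 3 CCL7 (orange) libraries. Points are libraries in the order of their replicate numbers, and the bar beside them is the mean ± SD. Fcgr1, Fcgr2b, Fcgr4 and Fcer1g are higher in every CCL7 library, Fcgrt is lower in every one, and the groups of Fcgr3 lie close together.

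Fcgr1 (ENSMUSG00000015947, GENCODE M21 on GRCm38, chr3:96282909-96293969, minus strand, protein-coding) was at 78.3, 69.7 and 74.6 CPM in control replicates 1, 2 and 3 and at 492, 516 and 483 CPM in the CCL7 replicates. Each CCL7 library was thus several times above each control. The log2 change was 2.74 ± 0.06 (SE, n = 3 per group here and below), a 6.70-fold rise (edgeR adjusted p = 6.75e-11), and 2.72 without CCL7 replicate 2. The receptor it encodes binds monomeric immunoglobulin G and needs the Fcer1g chain for its surface expression.

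Fcgr4 (ENSMUSG00000059089, chr1:171018920-171029761, plus strand) was at 22.1, 21.2 and 17.5 CPM in the controls and at 53.3, 63.6 and 53.2 CPM with CCL7. It was the least abundant of the activating receptor genes in CPM and per length in both groups, and the widest spread between replicates among the 6 genes was seen here, with the groups still apart. The log2 change was 1.48 ± 0.14, or 2.79-fold (edgeR adjusted p = 3.49e-07), and 1.39 without CCL7 replicate 2.

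Fcgr3 (ENSMUSG00000059498, chr1:171051174-171064935, minus strand), a low-affinity activating receptor gene, was at 437, 416 and 419 CPM in the controls and at 451, 466 and 444 CPM with CCL7. The CCL7 libraries were slightly above the controls in CPM, but below them in FPKM as deposited, where the controls were at 272, 258 and 261 and the CCL7 libraries at 238, 244 and 235. FPKM is scaled by the library total and CPM here by TMM, and the direction turned with that choice. The log2 change was 0.10 ± 0.03 and did not pass (edgeR adjusted p = 0.0749). It was -0.14 with the deposited totals (adjusted p = 0.0144) and -0.23 with quantile normalization (limma adjusted p = 0.00413), while DESeq2 gave 0.11 (adjusted p = 0.0467) and edgeR without the filter on low values 0.15 (adjusted p = 0.0272). Over all tested genes the median log2 change was -0.01 with TMM and -0.25 with the deposited totals, so relative to the median Fcgr3 was slightly higher under both of these scalings. It was below the median with quantile normalization, where the median was also -0.01.

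Fcgr2b (ENSMUSG00000026656, chr1:170958617-170976547, minus strand), the inhibitory receptor gene, was at 34.5, 35.4 and 35.8 CPM in the controls and at 284, 301 and 287 CPM with CCL7. The control libraries were nearly alike and all CCL7 libraries stood far above them. The log2 change of 3.04 ± 0.03 was an 8.24-fold rise (edgeR adjusted p = 2.06e-11), and 3.02 without CCL7 replicate 2. Fcgr2b ranked 162 from the top among the changes of the 11143 tested genes, Fcgr1 ranked 204, Fcgr4 522 and Fcer1g 639. Gm38204, an annotated antisense gene that overlaps Fcgr2b, was counted 5 times over the controls and 21 times over the CCL7 libraries, against 4378 and 36837 for Fcgr2b. The strand setting of the counting is not given in the sources used here, so reads of such partners cannot be told apart.

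Fcer1g (ENSMUSG00000058715, chr1:171229572-171234365, minus strand), the shared signalling chain, was at 552, 547 and 559 CPM in the controls and at 1253, 1440.5 and 1288 CPM with CCL7. The controls differed little and CCL7 replicate 2 was the highest library. The log2 change was 1.26 ± 0.06, or 2.40-fold (edgeR adjusted p = 1.43e-08), and 1.20 without CCL7 replicate 2. With quantile normalization it was 0.81. Fcer1g is also known from mast cells, whose markers are given above, and their part in this result was not tested.

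Fcgrt (ENSMUSG00000003420, chr7:45092990-45103851, minus strand), the heavy chain gene of the neonatal Fc receptor, was at 47.0, 52.3 and 51.8 CPM in the controls and at 15.2, 16.1 and 18.0 CPM with CCL7. All CCL7 libraries were well below all controls. The log2 change was -1.62 ± 0.09, a level 3.07-fold lower (edgeR adjusted p = 2.08e-08), and -1.61 without CCL7 replicate 2. Its light chain gene B2m, which also serves MHC class I molecules, rose from 1691 ± 40.8 to 4621 ± 419 CPM (mean ± SD; log2 change 1.45 ± 0.08, edgeR adjusted p = 1.05e-08), so the genes of the 2 chains of this receptor changed in opposite directions. The antisense gene Gm45669, which overlaps Fcgrt, was counted 8 times over the controls and 0 times with CCL7, against 6274 and 2073 for Fcgrt.

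**Figure D2:**
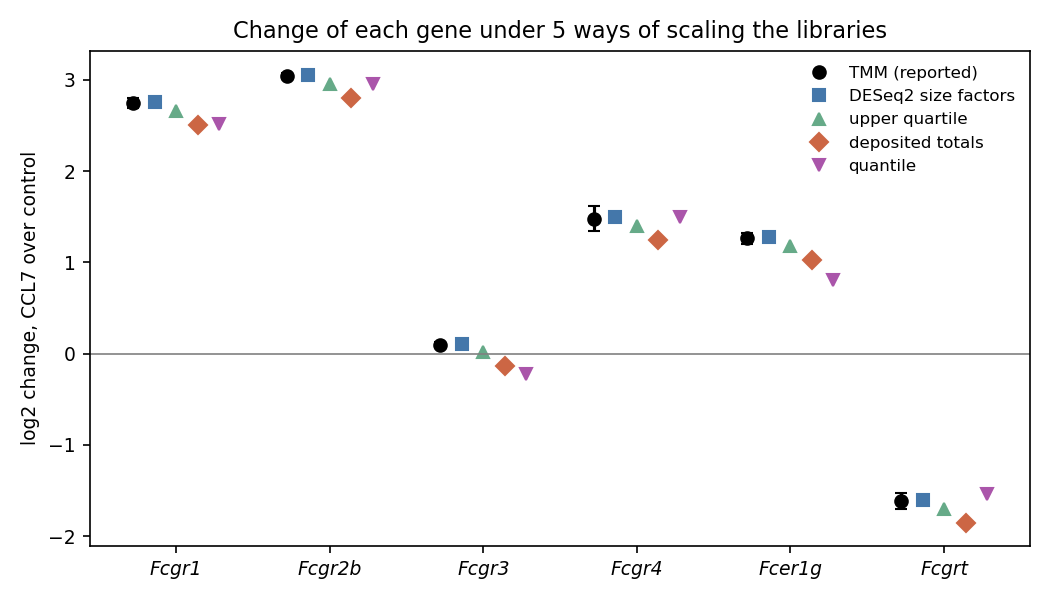
Log2 change (CCL7 over control, vertical axis) of the 6 genes under TMM scaling (black, with SE) and 4 other scalings. Fcgr3 moves across 0, from 0.10 with TMM to -0.14 with the deposited totals, and the other genes keep their direction under these 5 scalings.

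Levels of different genes can be compared only per length, for which the deposited FPKM was used. In the controls the order was Fcer1g (683 ± 8.04 FPKM, mean ± SD), Fcgr3 (264 ± 7.28), Fcgr1 (30.9 ± 1.83), Fcgrt (25.9 ± 1.49), Fcgr4 (17.4 ± 2.14) and Fcgr2b (6.57 ± 0.123), and no neighbours in that order overlapped between libraries. With CCL7 it was Fcer1g (1390.3 ± 95.2), Fcgr3 (239 ± 4.27), Fcgr1 (176 ± 4.73), Fcgr2b (46.0 ± 1.12), Fcgr4 (41.3 ± 4.06) and Fcgrt (7.15 ± 0.654 FPKM), and here only Fcgr2b and Fcgr4 overlapped. Fcgr2b thus went from the last place to the fourth, and Fcgrt from the fourth to the last.

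The make-up of the receptor mRNA shifted with these changes. Summed over Fcgr1, Fcgr2b, Fcgr3 and Fcgr4, FPKM was 319 ± 10.0 in the controls and 502 ± 13.9 with CCL7, a ratio of 1.58. This ratio rests on the deposited totals, under which changes were lower than with TMM (log2 change of Fcgr1 2.51 against 2.74). The shares of each gene do not depend on that scaling. Fcgr3 held 82.8 ± 0.394% of the summed FPKM in the controls and 47.6 ± 0.495% with CCL7. The share of Fcgr1 went from 9.71 ± 0.353% to 35.0 ± 0.106%, that of Fcgr2b from 2.07 ± 0.0997% to 9.15 ± 0.107%, and that of Fcgr4 from 5.47 ± 0.589% to 8.22 ± 0.576%. Within a group the 3 libraries differed little. In raw counts, without division by length, the share of Fcgr2b was 6.37% and 22.4%.

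**Figure D3:**
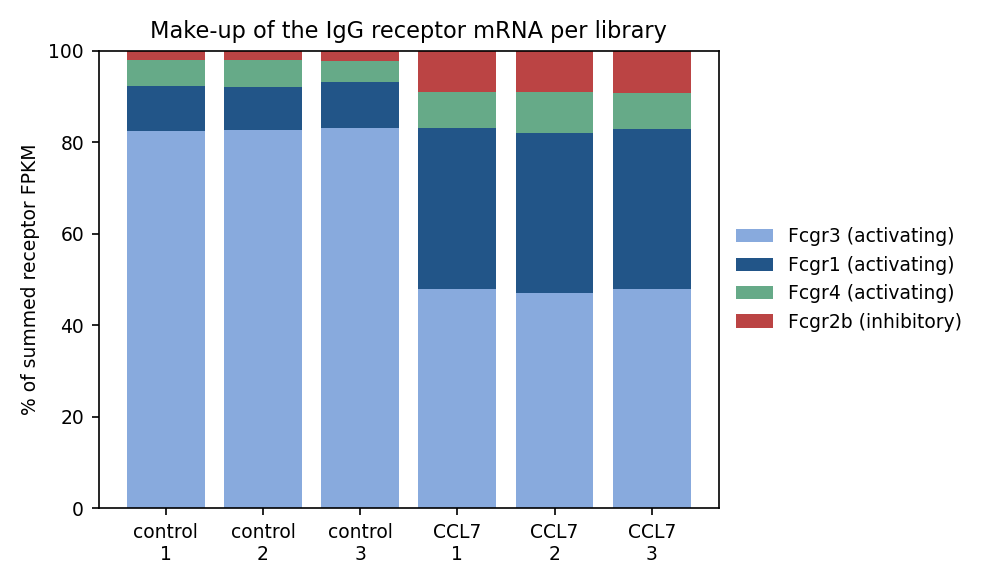
Share of the summed FPKM of the 4 receptor genes (vertical axis, percent) held by each gene, 1 bar per library. Fcgr3 takes over 80% of each control bar and under 50% of each CCL7 bar, and Fcgr1 and Fcgr2b take larger parts of the CCL7 bars.

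The ratio of activating to inhibitory receptor mRNA, (Fcgr1 + Fcgr3 + Fcgr4) to Fcgr2b in FPKM, needs no scaling between libraries. It was 50.3, 46.3 and 45.9 in control replicates 1, 2 and 3 and 10.0, 9.97 and 9.78 with CCL7, so it was 4.78-fold lower with CCL7 and the groups were far apart. The log2 change was -2.26 ± 0.04 (exact 2-sided permutation p = 0.1, the smallest that 3 against 3 libraries allow, and 0.1 after adjustment over 6 ratios). Most of that size rested on Fcgr3, since without it, with Fcgr1 and Fcgr4 alone over Fcgr2b, the log2 change was -0.64. Without Fcgr1 it was -2.81. The level of the ratio depends on the lengths given to the genes. For Fcgr2b the authors' FPKM used 5790 bases, the union of all annotated exons. With its longest coding transcript of 3544 bases and the other lengths kept, the ratio would be 29.1 ± 1.47 and 6.08 ± 0.0774 (mean ± SD). The change is the same in that case. For Fcgr3 the union (1736 bases) is also longer than the longest coding transcript (1347). The ratio with that length, which could also move the log2 change, was not computed.

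Taken gene by gene, the ratio of Fcgr3 to Fcgr2b was 40.1 ± 1.82 in the controls and 5.21 ± 0.0730 with CCL7 (log2 change -2.95 ± 0.04). The ratio of Fcgr4 to Fcgr2b was 2.66 ± 0.369 and 0.898 ± 0.0662 (-1.56 ± 0.13), so in deposited FPKM Fcgr4 passed from above Fcgr2b to just below it. That crossing rests on the division by length. In summed counts, without that division, Fcgr4 was below Fcgr2b in the controls (2529 against 4378) and with CCL7 (7171 against 36837). The ratio of Fcgr1 to Fcgr2b changed least, from 4.71 ± 0.341 to 3.82 ± 0.0531 (-0.30 ± 0.06). Among the activating receptors, Fcgr1 to Fcgr3 went from 0.117 ± 0.00427 to 0.735 ± 0.00668 (2.65 ± 0.03). The groups did not overlap in any of these ratios, each with an exact permutation p of 0.1, the smallest allowed, and 0.1 after adjustment.

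Fcer1g was measured against the receptors that need it. Its FPKM divided by the sum of Fcgr1, Fcgr3 and Fcgr4 was 2.11, 2.21 and 2.25 in the controls and 2.91, 3.18 and 3.04 with CCL7. The log2 change of this ratio was 0.48 ± 0.05 (exact permutation p = 0.1, the smallest allowed). It reversed to -1.14 when Fcgr3 was left out of the sum, so the direction depends on which receptors are counted.

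Fcgr2b and Fcgr3 are close relatives, and part of their mRNA is identical. Of the windows of 50 bases in annotated Fcgr3 transcripts, 9.58% also occur in Fcgr2b transcripts, and of those of 100 bases 2.54%. From the side of Fcgr2b these shares are 2.92% and 0.753%, and no other pair of the 6 genes shared a window of 50 bases or more. The longest identical run in annotated coding sequences of these 2 genes has 129 bases (263 to 391 of 801 in Fcgr3 and 278 to 406 of 879 in Fcgr2b) and is shown because reads inside it cannot be assigned to either gene. It was read from the GENCODE M21 transcripts.
Run shared by Fcgr3 and Fcgr2b, chromosome 1: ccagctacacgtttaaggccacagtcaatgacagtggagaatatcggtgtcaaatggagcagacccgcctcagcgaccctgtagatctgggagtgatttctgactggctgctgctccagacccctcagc
How such reads were counted is not given in the sources used here, so the counts of both genes are uncertain to that extent.

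Fcgr2b, Fcgr4, Fcgr3 and Fcer1g lie within 275749 bases of chromosome 1 (chr1:170958617-171234365), with 7 other protein-coding genes between them. Of these 7, only 3 were expressed enough to be tested. Pcp4l1, known from neurons as a relative of Pcp4, fell from 59.8 ± 3.41 to 4.20 ± 0.839 CPM (log2 change -3.84 ± 0.18, edgeR adjusted p = 7.45e-10). Sdhc, a subunit gene of mitochondrial succinate dehydrogenase, rose by 0.13 ± 0.05 (adjusted p = 0.0490), and Tomm40l, which encodes a mitochondrial import pore protein, fell (-0.19 ± 0.05, adjusted p = 0.0493). These 2 calls ended under several alternatives, among them the deposited totals for Sdhc (-0.10) and DESeq2 for Tomm40l (adjusted p = 0.110), and when single libraries were left out.

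**Figure D4:**
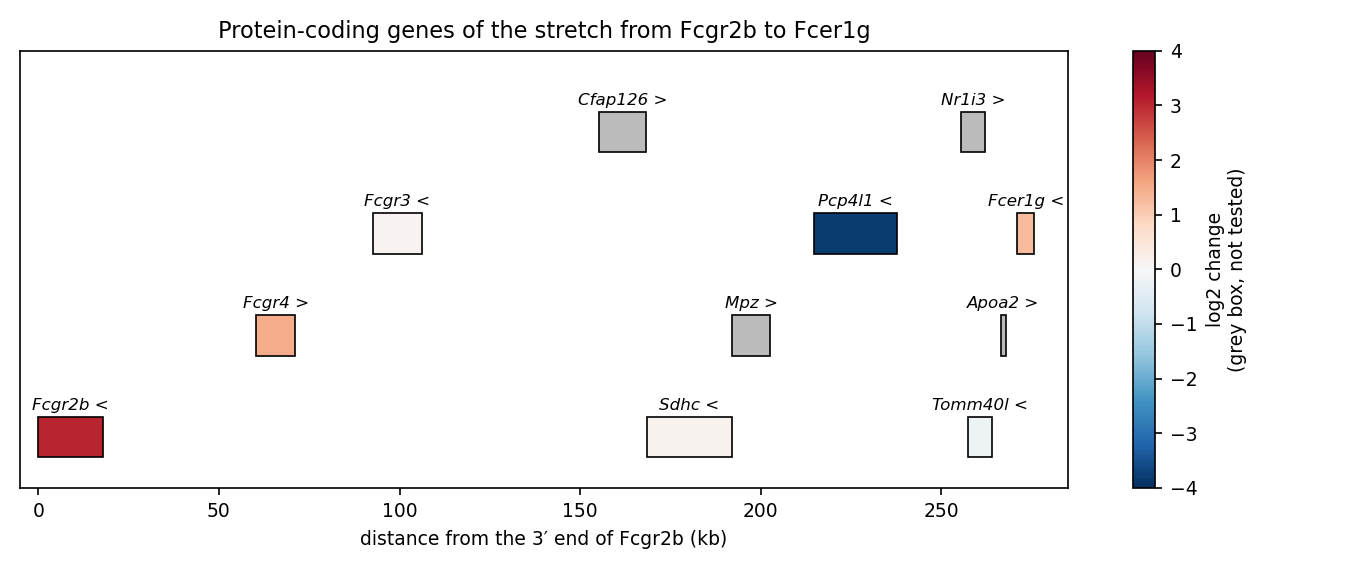
Protein-coding genes from Fcgr2b to Fcer1g, drawn to scale by distance from the 3′ end of Fcgr2b in kilobases, with an arrowhead beside each name for the strand. Rows only keep the names apart. Colour gives the log2 change with CCL7, red higher and blue lower, and grey boxes were not tested; the receptor genes and Fcer1g are white to red, and Pcp4l1 is deep blue.

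Genes that carry the receptor signal onward changed in both directions. Of 26 genes of proximal activating signalling 25 were tested, and 14 rose, 7 fell and 4 did not pass, with a median log2 change of 0.18 against -0.01 for all tested genes. Over all tested genes 33.9% rose and 35.2% fell. The split was 11 higher and 11 lower with the deposited totals, against 20.7% and 53.4% of all tested genes. With quantile normalization it was 10 higher and 8 lower, against 33.3% and 34.8%, and the median was 0.01 against -0.01. The adaptor gene Lcp2 (2.16 ± 0.05) and the Src-family kinase gene Fgr (2.05 ± 0.13) rose, and the Src-family kinase gene Fyn fell (-1.57 ± 0.05). Gab2 (0.07 ± 0.07), Grb2 (-0.00 ± 0.04), Sos1 (0.03 ± 0.06) and Vav2 (-0.12 ± 0.07), which encode adaptors and exchange factors, did not pass. With the deposited totals all 4 pass as lower, at -0.17, -0.24, -0.21 and -0.36. Syk, the kinase that docks on the phosphorylated ITAM, and the Src-family kinase gene Lyn were picked after their values were seen. Syk rose from 425 ± 11.2 to 1028 ± 33.9 CPM (1.28 ± 0.04, edgeR adjusted p = 2.72e-09) and Lyn from 179 ± 2.96 to 292 ± 15.1 CPM (0.71 ± 0.05, adjusted p = 6.39e-07).

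Of 15 genes of inhibitory signalling 14 were tested, and 10 rose, 3 fell and 1 did not pass, with a median of 0.38. Over all tested genes 33.9% rose and 35.2% fell. The split was 5 higher and 5 lower with the deposited totals, against 20.7% and 53.4% of all tested genes. With quantile normalization it was 6 higher and 3 lower, against 33.3% and 34.8%, and the median was 0.20. The ubiquitin ligase gene Cblb fell (-1.71 ± 0.06), and Dok2 (1.13 ± 0.07) and Dok3 (1.01 ± 0.05), which encode docking proteins that dampen kinase signalling, and the phosphatase gene Ubash3b (1.08 ± 0.09) rose. The genes of phosphatases known to act at inhibitory motifs, Inpp5d and Ptpn6, and their relatives Inppl1 and Ptpn11 were picked after their values were seen. Inpp5d, the SHIP-1 gene that serves Fcgr2b, went from 364 ± 7.01 to 322 ± 18.6 CPM (-0.17 ± 0.05, edgeR adjusted p = 0.0128), a call that ended without control replicate 2 (adjusted p = 0.0617) and without the filter (0.0856). Ptpn6, the SHP-1 gene, rose from 307 ± 7.89 to 528 ± 35.1 CPM (0.78 ± 0.06, adjusted p = 5.65e-07). Inppl1, the SHIP-2 gene, fell from 369 ± 12.2 to 204 ± 14.2 CPM (-0.86 ± 0.07, edgeR adjusted p = 4.23e-07). Ptpn11, the SHP-2 gene, rose by 0.31 ± 0.06 (edgeR adjusted p = 0.000834).

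Of 32 genes of the actin machinery that closes a phagocytic cup, 31 were tested, and 20 rose, 7 fell and 4 did not pass, with a median of 0.29. Over all tested genes 33.9% rose and 35.2% fell. With the deposited totals 13 were called higher and 11 lower, against 20.7% and 53.4% of all tested genes. With quantile normalization there were 10 in each direction, against 33.3% and 34.8%, and the median was -0.01. The small GTPase gene Rac2 rose by 1.27 ± 0.06, close to the change of Fcer1g, the actin-binding coronin gene Coro1a by 0.85 ± 0.06 and the GTPase gene Rhog by 0.82 ± 0.06. Myo1e, which encodes a membrane-linked myosin, fell (-1.04 ± 0.04). Wasf2 (0.06 ± 0.06), Nckap1l (-0.07 ± 0.05), Abi1 (0.09 ± 0.02) and Arf6 (-0.12 ± 0.04) did not pass. With the deposited totals all 4 pass as lower, at -0.18, -0.31, -0.15 and -0.35.

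Other receptors are known to signal through the same Fcer1g chain. Of 11 such genes 7 were in the table and 4 were tested, of which 3 rose and 1 fell, against 33.9% and 35.2% of all tested genes. The C-type lectin receptor gene Clec4e, which encodes Mincle, rose from 29.6 ± 0.874 to 2939.8 ± 431 CPM (6.63 ± 0.12, edgeR adjusted p = 2.06e-11). Clec4n, which encodes dectin-2, rose from 6.16 ± 0.710 to 258 ± 13.2 CPM (5.38 ± 0.11), and Clec4d, a partner of Mincle, from 344 ± 6.64 to 1555 ± 115 CPM (2.18 ± 0.06). Pira2, a paired immunoglobulin-like receptor gene with close copies between which reads may be split, fell (-0.41 ± 0.08). The median of the 4 was 3.78. Oscar, Lilra5 and Gp6 were below the filter, at no more than 0.427 CPM.

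A list named other ITAM chains had 5 genes in the table, of which Tyrobp and Hcst were tested. Tyrobp, which encodes the adaptor DAP12, rose by 0.27 ± 0.09 (592 ± 16.4 to 712 ± 77.7 CPM, edgeR adjusted p = 0.00752). Under the deposited totals the value was 0.03 (adjusted p = 0.728), and it was -0.11 with quantile normalization (limma adjusted p = 0.216). Hcst, which encodes DAP10, an adaptor chain of that list without an ITAM of its own, did not pass (0.11 ± 0.07). It was at 5.21 ± 0.429 and 5.60 ± 0.172 CPM. Among other immunoglobulin receptor genes, 9 of 13 were in the table and 3 were tested: B2m and Trim21 rose and Fcrl1 fell. Over all tested genes 33.9% rose and 35.2% fell. Trim21, which encodes a cytosolic antibody receptor, rose by 0.29 ± 0.06, but its call ended with the deposited totals (0.05, adjusted p = 0.453). Fcrl1, an Fc receptor-like gene known from B cells, fell from 15.0 ± 0.344 to 5.65 ± 0.766 CPM (-1.42 ± 0.12). The summed FPKM of the 5 B cell markers in the table was 0.269 to 0.358 in the controls and 0.0170 to 0.323 with CCL7, and their part in this result was not tested. The other 6, Pigr, Fcrla, Fcrlb, Fcrl5, Fcrl6 and Fcgbp, were at no more than 0.578 CPM.

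**Figure D5:**
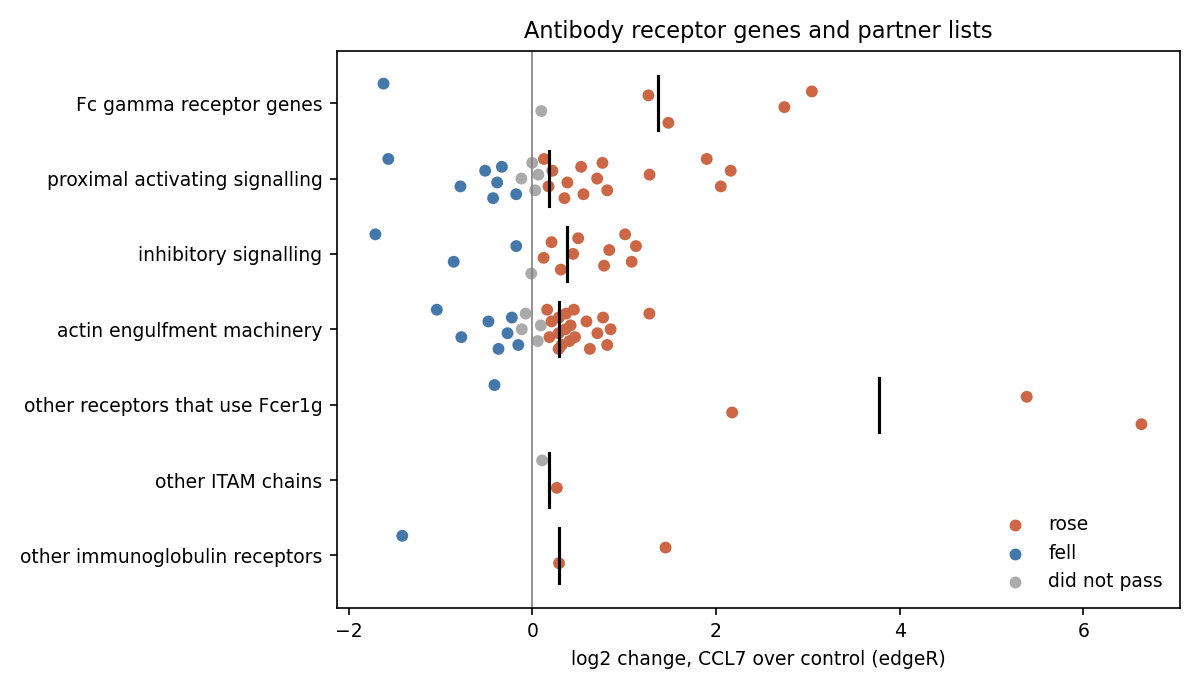
Log2 change (CCL7 over control, horizontal axis) of every tested gene in the Fc gamma receptor set and in 6 lists of partner genes, 1 point per gene, coloured by whether it rose, fell or did not pass. Black lines are medians; points are shifted up or down only to keep them apart. The signalling and actin lists have medians between 0.18 and 0.38, while Clec4e and Clec4n lie above 5.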

How the data were processed

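The 6 RNA sequencing libraries of bone marrow-derived macrophages, 3 per group, were grouped by their titles. Whole-number counts per Ensembl gene were deposited by the authors in columns whose headers read Count and name no normalization. Beside them stood FPKM (counts per kilobase of exons and library total), also as deposited by the authors. The builds mm9 and mm8 and the aligner Bowtie 0.12.2 appear per the submitters' processing notes, without a stated role. How reads were counted, and on which strand and annotation, is not given in the sources used here. The gene lengths implied by FPKM equalled the summed exon lengths of GENCODE M21 (GRCm38) for the 6 genes, and coordinates are from that annotation, matched by gene identifier. The 4 GRCm38.p6 promoter windows shown are RefSeq's.

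The 11143 genes whose FPKM averaged 1 or more were tested with edgeR 4.0.16 (quasi-likelihood test, 2-sided, TMM scaling, no term beside the group), with Benjamini-Hochberg adjustment over all of them and a threshold of 0.05. Standard errors come from the spread of log2 CPM (prior count 0.5). The common biological coefficient of variation was 6.81%. Ratios were compared by an exact permutation test over 20 assignments of the libraries. Alternatives were DESeq2 1.42.0, deposited totals, upper-quartile scaling, limma 3.58.1 on quantile-normalized values or on log2(FPKM + 1) or log2(FPKM + 0.1), other filters, counts divided by 2 (66.0% of counts from 1 to 9 were even, against 50.1% of those of 100 or more), the replicate number as a term, and leaving out each library. The edgeR step was tested on simulated data.

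The 6 genes and the lists were chosen with earlier results of these data known. By rule, the text names these 6, from each list the 4 changed genes with the largest change and those that did not pass, the genes between Fcgr2b and Fcer1g, and the 3 genes nearest in pattern to each of the 6. Some genes that the rule names are not reported here. Other names are stated as picked after their values were seen. Libraries cover these genes with 644 to 58888 counts each.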

Additional observations from a re-analysis of the deposited data

How the results depend on the processing

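Under the 16 alternatives, Fcgr1 (2.47 to 2.80), Fcgr2b (2.63 to 3.10), Fcgr4 (1.20 to 1.55), Fcer1g (0.81 to 1.32) and Fcgrt (-1.86 to -1.54) kept their direction and their call. Fcgr3 did not: its log2 change was 0.11 with DESeq2 and 0.15 without the filter, both past the threshold, and -0.14 with the deposited totals, -0.23 with quantile normalization, -0.14 with limma on log2(FPKM + 1) and -0.14 on log2(FPKM + 0.1). With single libraries left out it was 0.08 to 0.12. The number of genes changed was 5164 to 9798, and 6959 to 8044 with single libraries left out. The activating to inhibitory ratio kept its direction under its 10 alternatives (log2 change -2.81 to -0.64). The Fcer1g to receptor ratio reversed without Fcgr3 in the sum (-1.14). Of 96 list counts under an alternative, 90 were within 1.5 times the reported count. The exceptions were the other ITAM chains, with 0 genes changed under the deposited totals, upper-quartile scaling, limma on log2(FPKM + 1) and on log2(FPKM + 0.1) and 2 without the filter, and the other immunoglobulin receptors, with 6 without the filter. The filter changes which genes are tested; otherwise the cause was not tested.

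Whether the replicate numbers pair the libraries is not told by the labels. Deviations of same-numbered libraries correlated at -0.0835, -0.0346 and -0.0162 across genes, and those of differently numbered ones at -0.0352 to 0.0833. With 3 libraries per group these values cannot settle it. With the replicate block 7432 genes changed, Fcgr1 was at 2.75 (2.74 without it), Fcgr3 at 0.10, no call among the 6 genes changed, and the 2 receptor ratios were unchanged at -2.26 and 0.48 (sign-flip permutation p = 0.25, the smallest 3 pairs allow).

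Of 822 values of the 52 other named genes under alternatives, 724 kept direction and call, 27 lost the call, 29 gained it in the same direction and 42 turned direction. Cell type markers, Inppl1 and Ptpn11 are not among the 52. Of the 42 that turned, 18 were past the threshold as lower and 0 as higher. With DESeq2 it was Grb2 (0.0117). With the deposited totals they were Gab2 (-0.17), Sos1 (-0.21), Wasf2 (-0.18), Abi1 (-0.15), Hcst (-0.13), Vim (-0.14), St6galnac4 (-0.14), Exosc7 (-0.14) and Sdhc (-0.10). With limma on log2(FPKM + 1) the same genes were at -0.17, -0.17, -0.18, -0.14, -0.12, -0.14, -0.12, -0.10 and -0.10, and on log2(FPKM + 0.1) at -0.17, -0.20, -0.18, -0.15, -0.13, -0.14, -0.14, -0.13 and -0.10. With upper-quartile scaling they were Gab2 (-0.0199), Sos1 (-0.0541) and Wasf2 (-0.0264), and with quantile normalization Gab2 (-0.0784), Wasf2 (-0.11), Abi1 (-0.0799), Tyrobp (-0.11) and Vim (-0.49). Without the filter it was Grb2 (0.0507), and with a mean FPKM of at least 5 Wasf2 (-0.003471). With single libraries left out, Grb2 ran from -0.0454 to 0.0294 and Sos1 from -0.001928 to 0.0751.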

Other observations

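For each of the 6 genes, the 3 tested genes nearest in pattern were found by the Euclidean distance over the 6 libraries of log2 CPM taken relative to the control mean. With 2 groups this is mostly a likeness in the size of the change, and it says nothing of shared function or control. Nearest to Fcgr1 were Clec4a1, a C-type lectin receptor gene (distance 0.160, log2 change 2.72 ± 0.04), Tgtp2, an interferon-inducible GTPase gene (0.183, 2.82 ± 0.10), and Slc25a37, the mitochondrial iron importer gene (0.213, 2.74 ± 0.06). Nearest to Fcgr2b were Ms4a6d, a membrane-spanning protein gene (0.124, 3.02 ± 0.07), Gm21188 (0.187, 2.96 ± 0.06) and Il1rl2, the interleukin-36 receptor gene (0.196, 2.97 ± 0.04).

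Nearest to Fcgr4 were Stap1, a signalling adaptor gene (distance 0.189, log2 change 1.51 ± 0.08), Ube2l6, the conjugating enzyme gene of the ubiquitin-like protein ISG15 (0.193, 1.54 ± 0.11), and Tuba4a, a tubulin gene (0.203, 1.47 ± 0.07). Nearest to Fcer1g were Rac2 (0.0591, 1.27 ± 0.06), Mvp, the major vault protein gene (0.0860, 1.29 ± 0.06), and the histone gene H2bc4 (0.0960, 1.24 ± 0.06). Nearest to Fcgr3 were Vim, the vimentin gene (0.0213, 0.10 ± 0.03), St6galnac4 (0.0416, 0.10 ± 0.03) and Exosc7 (0.0451, 0.10 ± 0.04), none of which passed. With the deposited totals all 3 were below 0, as was Fcgr3, and Vim (-0.14) and St6galnac4 (-0.14) passed as lower, whereas Vim passed as higher with DESeq2 (0.11) and without the filter (0.15). Nearest to Fcgrt, which fell, were Cenps (0.119, -1.63 ± 0.08), a centromere protein gene, Sord, the sorbitol dehydrogenase gene (0.141, -1.58 ± 0.06), and Cep89, a centrosomal protein gene (0.151, -1.58 ± 0.12).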
